A study of Mus musculus with 64 samples.

Results

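Interval training was compared with sedentary housing in hearts of male transgenic mice. The comparison took the 8 libraries labelled trained TG male and the 9 labelled sedentary TG male, 17 of 64 libraries in all, by their labels. TG stands for mice carrying the cTnT-delta160E form of cardiac troponin T as a transgene, nTG for mice without it, and HIIT for high-intensity interval training. All groups were C57BL/6J mice, and both groups of the main comparison carried the transgene. Trained mice ran on a treadmill for 31 minutes on 3 days a week over 6 weeks, alternating 4 fast intervals at 85% and 4 slow ones at 50% of the mean speed their group had reached in a graded test. Sedentary mice did no treadmill running. Beside this contrast, 15 nTG males (8 trained, 7 sedentary) and 14 TG females (6 trained, 8 sedentary) were used to place the values. The age of the mice, the promoter driving the transgene and the part of the heart taken are not given in the sources used here. Each library is labelled as a separate biological replicate. The p-values of the main gene tests rest on the spread between libraries within the 8 groups, estimated over all 64 libraries. The permutation tests of library measures used the 17 TG male libraries.

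Cardiac troponin T, the product of Tnnt2, ties the troponin complex to tropomyosin on the thin filament, and variants of it cause hypertrophic cardiomyopathy, in which heart muscle thickens, stores more matrix and often uses fuel less well. The working heart draws most of its energy from fatty acids: these are taken up, cut down by beta-oxidation, fed into the tricarboxylic acid (TCA) cycle and turned into ATP by the respiratory chain in the mitochondria. Endurance exercise is known for raising mitochondrial capacity in muscle, and a diseased heart is known for raising fetal and stress genes such as the natriuretic peptides and skeletal actin.

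The gene table did not carry the libraries in the order of its column names, so each library was found through the lncRNA table, whose columns are named correctly. Over 389 autosomal transcripts found in both tables, each of the 17 TG male lncRNA columns had a gene column that matched it best, with Pearson's r between 0.599 and 0.846 across transcripts (which are not independent replicates) against at most 0.330 for the next best. With these columns, 0 of 64 libraries went against the labelled sex and 0 against the labelled genotype, where by column name 32 and 30 did. The 17 libraries held 35.4 M to 57.9 M counts (M, megacounts). Tnnt2 (ENSMUSG00000026414, chromosome 1, GRCm38 1:135836354-135852260), which sums reads of the mouse gene and any transgene reads that map to it, ran from 6538 CPM (counts scaled to the TMM-adjusted size of the library) through a median of 8250 to 9465 CPM in sedentary mice and from 6918 through 9154 to 10297 CPM in trained mice. The groups overlapped, and the log2 fold change, trained over sedentary, was 0.13 ± 0.06 (SE; edgeR adjusted p 0.164). With trained replicate 4 left out, Tnnt2 was called higher in trained mice (0.16, adjusted p 0.0434; 0.25 in a fit corrected for GC content and transcript length, adjusted p 0.0124). The transgenic level was in place in every library: TG exceeded nTG by 1.34 log2 units among sedentary males. Heart muscle markers were high throughout, with 9 marker genes of cardiomyocytes summing to 61740 to 73462 CPM in trained and 63672 to 70796 CPM in sedentary mice.

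Among the 17, 2 libraries stood apart. The library of trained replicate 4 had the highest Nppa, Col1a1, Col6a3 and Mmp14 and the lowest Idh3a, Ndufs1 and Ndufv2 of the trained mice. The library of sedentary replicate 5 held 0.505% of its counts in 9 red blood cell genes, against 0.0425% to 0.130% in the other 8 sedentary mice and 0.0368% to 0.0663% in trained mice. No library was left out of the main values.

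Training went with many small differences in transgenic males. Of 16913 genes tested, 3036 (18%) passed an adjusted p under 0.05 in edgeR's quasi-likelihood test, 1750 (10.3%) higher and 1286 (7.6%) lower in trained mice. The median size of a called change was 0.22 log2 units, 93.5% of the called genes changed by less than 0.5, and 26 changed by at least 1. Trained and sedentary levels did not overlap for 129 genes higher (0.763%) and 56 genes lower (0.331%) in trained mice. The count was 1702 without trained replicate 7 and 4061 (2028 higher and 2033 lower) without trained replicate 4. It was 2385 without sedentary replicate 5.

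The direction of a gene's change followed the base composition of its transcript. In the fifth of genes with the lowest GC content (30.8% to 43.8%), 955 of 3376 were called higher and 5 lower. In the fifth with the highest (55.7% to 78.3%), 12 of 3376 were called higher and 805 lower. Genes called higher had a median GC content of 43.3%, genes called lower 56.9%, and all genes 49.8%. Spearman's rho between fold change and GC content across 16879 genes, which share the same libraries, was −0.56, and with transcript length it was 0.05. Each library was given a GC slope, the change of its log2 CPM, relative to the mean of the 17, per percentage point of GC. It ran from −0.0211 to −0.00165 in the 8 trained mice and from 0.00389 to 0.0127 in the 9 sedentary mice, so the groups did not overlap (difference −0.0165; two-sided exact permutation test p 4.11e-05, adjusted over 6 library measures 0.000247). Relative to the mean of all 64 libraries, the slopes of trained nTG males (−0.0125 to 0.00926) and sedentary nTG males (−0.00844 to 0.0162) overlapped, as did those of trained (−0.0210 to 0.00809) and sedentary (−0.0302 to 0.0161) TG females. Library preparation batches are not given in the sources used here, and the part of any such batch in the slopes was not tested.

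**Figure D1:**
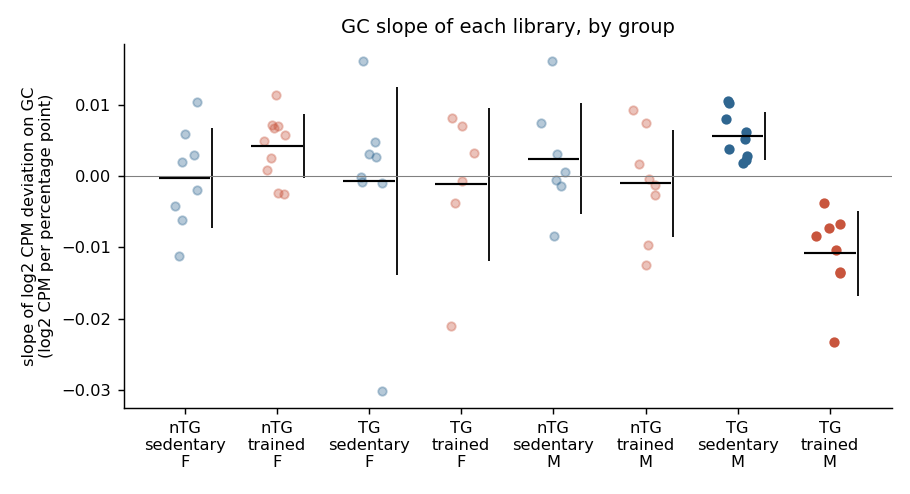
GC slope of each of the 64 libraries relative to their common mean (y axis, log2 CPM per percentage point of GC content), by group (x axis; blue sedentary, red trained); horizontal lines are group means and vertical lines 1 SD. The 8 trained TG males lie below 0 and the 9 sedentary TG males above it, while the trained and sedentary libraries of the other groups overlap.

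A second fit therefore removed from each library its smooth trend over GC content and transcript length before testing. With these offsets 246 genes (1.45%) passed, 180 (1.06%) higher and 66 (0.39%) lower in trained mice, and 3203 had an unadjusted p under 0.05, against 5401 without offsets. Of the 246, 208 (84.6%) were also called without offsets, which is 6.85% of the 3036. Of the 3036 genes, 2878 kept the direction of their change and 158 turned, and their median size of change was 0.11 log2 units. The offset for GC content alone left 263 calls, and that for length alone 2774. With both offsets the count was 1960 (1295 higher and 665 lower) without trained replicate 4 and 0 without sedentary replicate 5. Since no gene at all was called in the latter setting, each list count with offsets that follows was 0 without sedentary replicate 5. List counts without trained replicate 4 that follow are to be set against the counts of all 16913 genes in that setting. These were 2028 higher and 2033 lower without offsets, and 1295 higher and 665 lower with them. Leaving out trained replicate 4 gave the highest count in both fits.

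**Figure D2:**
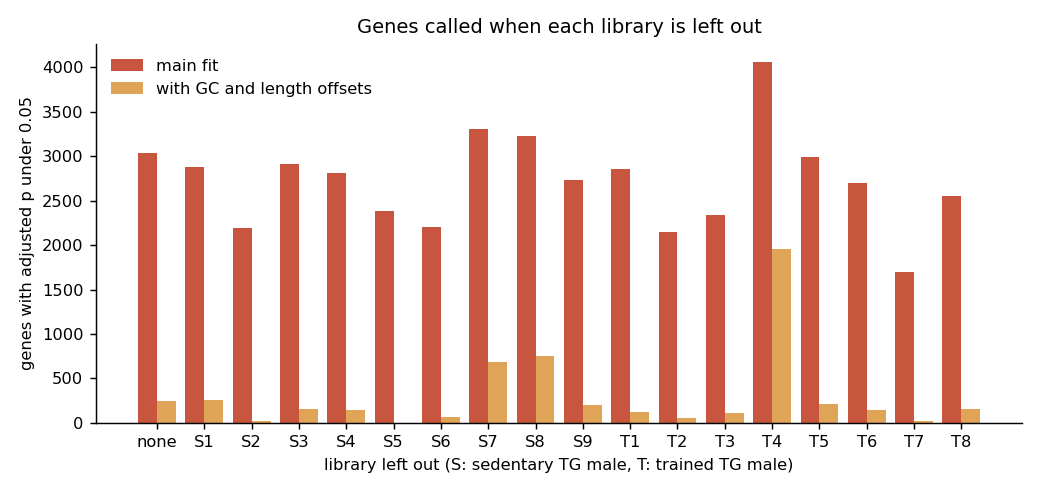
Genes called between trained and sedentary TG males (y axis) with no library left out and with each of the 9 sedentary (S) and 8 trained (T) libraries left out in turn (x axis), without offsets (red) and with GC and length offsets (yellow). The counts run from 1702 to 4061 without offsets and from 0 to 1960 with them, and the highest of both come from leaving out trained replicate 4.

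**Figure D3:**
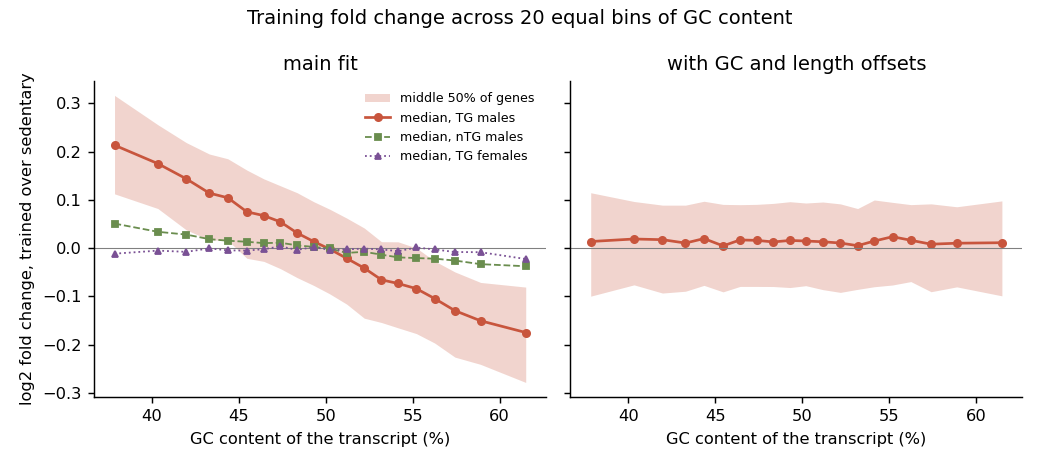
Log2 fold change of training (y axis) against GC content of the transcript (x axis, %) in 20 bins of equal gene number, without offsets (left) and with GC and length offsets (right); points are bin medians and the band holds the middle 50% of genes in TG males. Without offsets the median falls from low to high GC in TG males, far less in nTG males and hardly in TG females; with offsets it lies near 0 in every bin.

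Between 15 and 19 nuclear genes in each of the fatty acid oxidation, TCA cycle, complex I and complex III to V lists rose after training, under 50% of each list, and no member was called lower in either fit. Among all genes 10.3% were called higher and 7.6% lower (1.06% and 0.39% with offsets). Of 34 fatty acid oxidation genes, 16 rose, with a median of 0.16 over the list against 0.00 over all genes. With offsets 5 rose and the median was 0.18. Of 31 genes of pyruvate oxidation and the TCA cycle, 15 rose (median 0.14; 3 and 0.14 with offsets). Of 37 complex I genes, 16 rose (median 0.15; 5 and 0.13 with offsets), and of 40 genes of complex III, complex IV and the ATP synthase, 19 rose (median 0.17; 10 and 0.15 with offsets). Of 21 genes that break down branched-chain amino acids, 12 rose (median 0.17; 2 and 0.15 with offsets). The median GC content of these lists, 48.7% to 51.7%, lay near that of all genes. In the absence of trained replicate 4 and with offsets, 23 fatty acid oxidation, 23 TCA cycle, 24 complex I and 26 complex III to V genes were called higher, and 0 lower. Of all 16913 genes 1295 were called higher and 665 lower in that setting. Without sedentary replicate 5 and with offsets the list medians were 0.15, 0.11, 0.12 and 0.14. Leaving out each library in turn without offsets gave 10 to 20 fatty acid oxidation, 9 to 22 TCA cycle, 7 to 23 complex I and 15 to 24 complex III to V genes called higher and 0 lower. For the branched-chain genes 14 rose without trained replicate 4 and with offsets. Markers of heart muscle cells had fold changes of like size: of 9, Pln and Ryr2 rose without offsets (list median 0.10) and Tnni3, cardiac troponin I, named after its values were seen, with them (0.21, adjusted p 0.0496; list median 0.15), and 0 fell. In fits without trained replicate 4, 5 of the 9 rose without and with offsets (medians 0.13 and 0.19). The part of heart muscle cells in the mitochondrial values was not tested.

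The genes named from these lists are the called members with the smallest p, so their separation between groups was fixed by that choice. Dld, the dihydrolipoamide dehydrogenase shared by the pyruvate, oxoglutarate and branched-chain dehydrogenases, ran from 140 through a median of 160 to 174 CPM in sedentary and from 152 through 209 to 255 CPM in trained mice, and 7 of the 8 trained mice lay above every sedentary one. Its log2 fold change was 0.39 ± 0.08 (SE; edgeR adjusted p 0.00133), and 0.24 with offsets (adjusted p 0.0307). Idh3a, a subunit of the NAD-dependent isocitrate dehydrogenase of the TCA cycle, ran from 229 through 282 to 315 CPM in sedentary and from 266 through 338 to 381 CPM in trained mice. The one trained library within the sedentary range was replicate 4, and the fold change was 0.30 ± 0.06 (adjusted p 0.00137; 0.26 with offsets, adjusted p 0.0183).

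Among fatty acid genes, Cd36, which carries fatty acids across the plasma membrane, ran from 591 through 701 to 732 CPM in sedentary and from 748 through 839 to 906 CPM in trained mice, without overlap. Its fold change of 0.31 ± 0.07 (adjusted p 0.00202) became 0.13 with offsets (adjusted p 0.17), and its transcript has a GC content of 38.4%. Acadl, the long-chain acyl-CoA dehydrogenase, rose by 0.26 ± 0.06 (adjusted p 0.00299; 0.17 with offsets, adjusted p 0.085). The 5 fatty acid genes called in the offset fit were Acsl1 (0.19), which activates fatty acids to acyl-CoA, Acadvl (0.24) and Acadm (0.23), the very-long-chain and medium-chain dehydrogenases, Acaa2 (0.31), the thiolase of the last step, and Eci2 (0.25), an enoyl-CoA isomerase. Those 5 were chosen after their values were seen.

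In the respiratory chain, Ndufs1, the large iron-sulfur subunit of complex I, ran from 352 through 412 to 447 CPM in sedentary and from 369 through 507 to 543 CPM in trained mice, and again 7 of 8 trained mice lay above all sedentary ones. It rose by 0.29 ± 0.06 (adjusted p 0.00176; 0.22 with offsets, adjusted p 0.0298). Ndufv2, another core subunit of complex I, rose by 0.34 ± 0.07 (adjusted p 0.00233), and was not called with offsets (0.19, adjusted p 0.0639). Of the ATP synthase, Atp5f1, a subunit of its peripheral stalk, ran from 208 through 241 to 279 CPM in sedentary and from 235 through 304 to 350 CPM in trained mice and rose by 0.33 ± 0.07 (adjusted p 0.00233; 0.30 with offsets, adjusted p 0.0183). Atp5h, also of the stalk, rose by 0.26 ± 0.06 (adjusted p 0.00222; 0.22 with offsets, adjusted p 0.0183). The other ATP synthase and cytochrome c oxidase genes called in both fits (Atp5a1, Atp5c1, Atp5j, Atp5o, Cox4i1, Cox5a, Cox6c and Cox7a2, named after their values were seen) had offset fold changes of 0.21 to 0.36. Mut, the methylmalonyl-CoA mutase at the end of valine and isoleucine breakdown, rose by 0.33 ± 0.07 (adjusted p 0.00183), and had an offset value of 0.20 (adjusted p 0.0923).

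The promoters of these genes were searched for 2 motifs named for factors that are known to control respiratory genes: the half-site of the estrogen-related receptors and the core of the NRF1 site. The half-site was searched as AAGGTCA on either strand, so that it appears as TGACCTT where it lies on the strand opposite to the gene. The letters searched for the NRF1 core were TGCGCA, which read the same on both strands. Neither motif contains the other, and both were picked after the values had been seen. A longer form of the NRF1 site was searched first and replaced by the core; it was found in more windows of complex III, complex IV and ATP synthase genes than the core was, so these counts depend on the letters chosen. Windows reach from 250 bases before to 50 after the start of each RefSeq gene (GRCm38.p6). Over all 32851 windows, 4.72% held the half-site and 7.76% the NRF1 core. Of 34 windows of complex III, complex IV and ATP synthase genes (31 of 40 genes matched) 5 held the half-site and 6 the NRF1 core. Of 34 windows of complex I genes (32 of 37 matched) 3 and 11 held them. Of 31 windows of fatty acid oxidation genes (27 of 34 matched) 2 and 2 did, of 36 windows of TCA cycle genes (27 of 31 matched) 2 and 8, and of 75 windows of mitochondrial ribosomal protein genes (69 of 78 matched) 4 and 22. Of the 24 genes of these lists called in both fits, 17 had a window that was used here (windows on 1 chromosome were not) and 4 of them a motif. The 3 of the 4 with the smallest p are shown 5′ to 3′ on the strand of the gene, with the motifs in capitals, so that the matched letters can be read in place. They lie on the minus strand at chr12:31351422-31351721 (Dld), chr3:153944594-153944893 (Acadm) and chr13:74350191-74350490 (Sdha, the catalytic subunit of succinate dehydrogenase).
Dld: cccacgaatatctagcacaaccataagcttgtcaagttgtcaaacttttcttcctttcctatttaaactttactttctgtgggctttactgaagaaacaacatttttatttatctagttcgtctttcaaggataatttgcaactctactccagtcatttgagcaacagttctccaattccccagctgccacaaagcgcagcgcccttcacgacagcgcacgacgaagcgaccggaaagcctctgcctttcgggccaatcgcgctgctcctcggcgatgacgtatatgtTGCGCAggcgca
Acadm: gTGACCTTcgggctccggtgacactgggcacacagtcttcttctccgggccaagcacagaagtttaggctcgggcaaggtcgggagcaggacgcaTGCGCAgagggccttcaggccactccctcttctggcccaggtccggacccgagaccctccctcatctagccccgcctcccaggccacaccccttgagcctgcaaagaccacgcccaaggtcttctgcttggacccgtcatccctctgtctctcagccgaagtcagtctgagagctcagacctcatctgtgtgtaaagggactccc
Sdha: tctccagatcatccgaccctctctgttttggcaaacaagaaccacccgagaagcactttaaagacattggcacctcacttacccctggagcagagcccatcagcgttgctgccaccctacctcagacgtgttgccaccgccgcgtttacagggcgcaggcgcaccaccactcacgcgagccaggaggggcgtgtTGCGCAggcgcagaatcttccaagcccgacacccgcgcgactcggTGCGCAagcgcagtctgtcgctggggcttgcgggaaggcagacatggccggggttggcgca
A match describes the letters of these windows and is not a measured binding site.

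Mitochondrial upkeep genes moved less evenly. Of 78 mitochondrial ribosomal protein genes, 18 rose and 0 fell (median 0.09), and 2 rose with offsets. When trained replicate 4 was left out the counts were 27 and, with offsets, 21, and without sedentary replicate 5 the count was 11. These 2 were Mrps30, of the small subunit (0.38 ± 0.07, adjusted p 0.000876; 0.29 with offsets, adjusted p 0.0179), and Mrpl47, of the large subunit (0.28 ± 0.06, adjusted p 0.00262; 0.22 with offsets, adjusted p 0.0421). Of 26 regulators of mitochondrial biogenesis and shape, 10 rose and 3 fell (median 0.07; 2 rose with offsets, and 9 without trained replicate 4). Dnm1l, the dynamin-like GTPase that divides mitochondria, ran from 64.0 through 74.8 to 79.2 CPM in sedentary and from 78.9 through 90.7 to 110 CPM in trained mice and rose by 0.32 ± 0.06 (adjusted p 0.000769; 0.18 with offsets, adjusted p 0.0241). Prkaa2, the AMP-activated kinase subunit of muscle, rose by 0.20 ± 0.04 (adjusted p 0.00207), with an offset value of 0.06 (adjusted p 0.506). The 3 that fell were Pprc1, Ppard and Ppargc1b, named after their values were seen.

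Of the 13 messages encoded in the mitochondrial genome, 2 rose. These were mt-Nd3, a complex I subunit (0.68 ± 0.15, adjusted p 0.00198; 227 through 250 to 322 CPM in sedentary and 270 through 420 to 549 CPM in trained mice), and mt-Co1, a core subunit of cytochrome c oxidase (0.25 ± 0.06, adjusted p 0.00401). Their median was 0.16 without and −0.10 with offsets, and 0 were called with offsets. Once trained replicate 4 was removed, 7 rose, and with offsets 1 rose and 1 fell. The 13 have the lowest median GC content of the 31 pathway lists, 37.1%. Of 81 cytosolic ribosomal protein genes, 23 rose and 1 fell (median 0.09), and 9 rose with offsets. Without trained replicate 4 and with offsets 20 rose. Leaving out each library in turn without offsets gave 12 to 25 of the 81 called higher. Among them Rps21 rose by 0.32 ± 0.08 (adjusted p 0.00523; 0.33 with offsets, adjusted p 0.0183) and Rps3a1 by 0.27 ± 0.07 (adjusted p 0.00405; 0.20 with offsets, adjusted p 0.0305). Ribosomal protein genes have many near-identical pseudogenes, so their counts are uncertain.

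**Figure D4:**
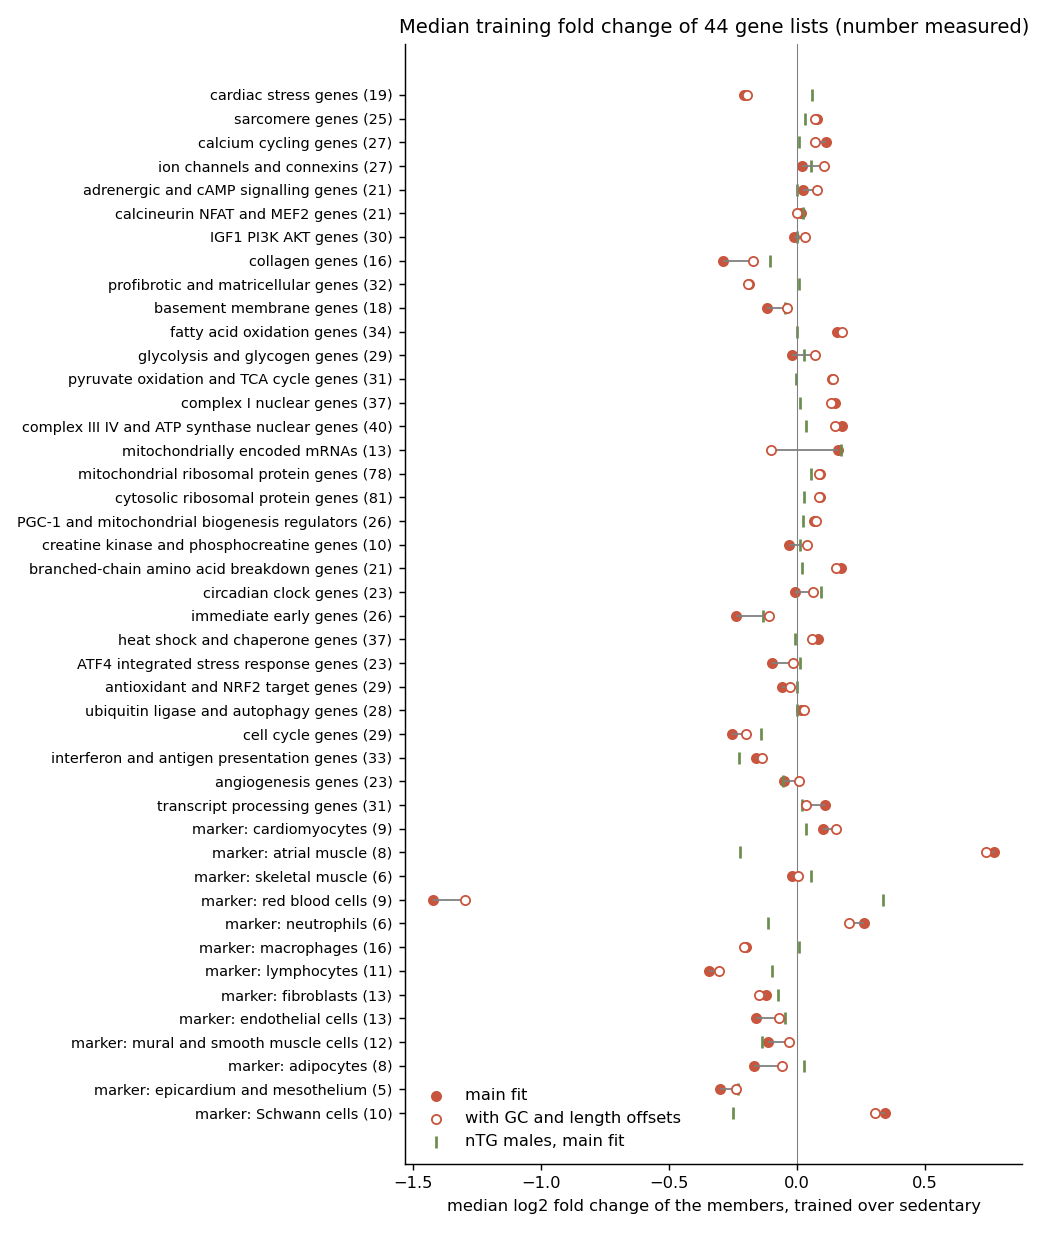
Median log2 fold change, trained over sedentary, of the members of 44 gene lists (x axis) with the number measured in parentheses; filled red points are TG males without offsets, open points with GC and length offsets, and green ticks nTG males without offsets. The fatty acid oxidation, TCA cycle and nuclear respiratory chain lists keep medians of 0.13 to 0.18 in both fits, and the list of mitochondrially encoded messages moves from 0.16 to −0.10.

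Genes of glucose use gave counts near those of all genes (10.3% higher and 7.6% lower) in the fit of all libraries. Of 29 genes of glucose transport, glycolysis and glycogen, 3 rose and 3 fell (median −0.02), and 0 were called with offsets. Without trained replicate 4, 7 rose and 3 fell, and with offsets 11 rose and 0 fell. Of all 16913 genes 1295 rose and 665 fell with offsets in that setting. Eno1, the glycolytic enolase, fell by 0.15 on the log2 scale (adjusted p 0.0111), with an offset value of −0.01. Of 10 creatine kinase and phosphocreatine genes 0 rose and 2 fell (0 called with offsets; 2 rose and 1 fell with offsets without trained replicate 4). They were Ckb, the brain-type creatine kinase (−0.26 ± 0.06, adjusted p 0.00347; −0.11 with offsets), and Slc6a8, the creatine transporter (−0.18 ± 0.07, adjusted p 0.0471; −0.03 with offsets), whose call was lost in 9 of 17 fits that each left out a library.

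Counts of cardiac stress genes are set against 10.3% higher and 7.6% lower among all genes (1.06% and 0.39% with offsets). Of 19 such genes 0 rose and 2 fell (median −0.21), and 0 were called with offsets (median −0.19). Nppa, which encodes atrial natriuretic peptide, ran from 33.5 through 174 to 288 CPM in sedentary and from 51.6 through 86.5 to 472 CPM in trained mice. The value of 472 belonged to trained replicate 4, the other 7 trained mice lay between 51.6 and 119, and the groups overlapped (log2 fold change −0.28 ± 0.43, adjusted p 0.697). Nppb, the B-type peptide, ran from 57.5 through 121 to 188 CPM in sedentary and from 36.1 through 71.2 to 152 CPM in trained mice (−0.48 ± 0.24, adjusted p 0.151). Acta1, skeletal alpha-actin, ran from 201 through 494 to 951 CPM in sedentary and from 135 through 241 to 689 CPM in trained mice (−0.88 ± 0.34, adjusted p 0.0573). Myh7, the slow beta myosin heavy chain, ran from 525 through 1802 to 3844 CPM and from 452 through 908 to 2671 CPM (−0.71 ± 0.35, adjusted p 0.152).

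None of these 4 passed in the fit of all libraries. Acta1 passed without sedentary replicate 5 (−0.96, edgeR adjusted p 0.0491), 7 (−0.99, adjusted p 0.0311) or 8 (−0.98, adjusted p 0.034). With trained replicate 4 left out, Nppb (−0.70, adjusted p 0.0264), Acta1 (−1.21, adjusted p 0.00738) and Myh7 (−1.06, adjusted p 0.0253) did, Nppa had a value of −0.98 (adjusted p 0.0753), and 9 of the 19 stress genes were called lower. Of all 16913 genes 2033 were called lower in that setting. In that setting with offsets 7 of 19 were called lower, against 665 of all genes, and Myh7 had a value of −0.90 (adjusted p 0.0799). Over the fits that each left out a library, 1 to 9 stress genes were called lower without offsets. The 2 called in all libraries were Gdf15, a stress-induced cytokine, and Ankrd23, a titin-binding ankyrin repeat protein. Gdf15 ran from 1.42 through 4.01 to 6.44 CPM in sedentary and from 1.39 through 1.84 to 4.73 CPM in trained mice. Its fold change was −0.84 ± 0.25 (adjusted p 0.0135), and −0.68 with offsets (adjusted p 0.102). Ankrd23 had a fold change of −0.31 ± 0.11 (adjusted p 0.0402), and −0.19 with offsets. The call of Ankrd23 was lost in 10 of 17 fits that left out a library.

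Counts of sarcomere genes in the fit of all libraries were near the 10.3% higher and 7.6% lower of all genes. Of 25 sarcomere genes 2 rose and 1 fell (median 0.08; 1 rose with offsets). In the absence of trained replicate 4, 6 rose and 2 fell, and with offsets 7 rose and 0 fell. Of all 16913 genes 1295 rose and 665 fell with offsets in that setting. Nebl, the Z-disc protein nebulette, rose by 0.28 ± 0.06 (adjusted p 0.00169; 0.13 with offsets, adjusted p 0.109) and Nexn, the Z-disc protein nexilin, by 0.19 ± 0.06 (adjusted p 0.0325; 0.02 with offsets), the latter lost in 9 of 17 fits that left out a library. Myh6, the fast alpha myosin heavy chain of the adult mouse heart, ran from 33531 through 34911 to 40273 CPM in sedentary and from 29499 through 39127 to 41904 CPM in trained mice (0.09 ± 0.05, adjusted p 0.206; 0.23 with offsets, adjusted p 0.0569). It was called when trained replicate 4 was left out (0.13, adjusted p 0.0319; 0.29 with offsets, adjusted p 0.00278). Of 27 calcium cycling genes 9 rose and 0 fell (median 0.11), and with offsets 1 rose (median 0.07; 5 rose without trained replicate 4). Pln, phospholamban, the brake on the calcium pump, ran from 1404 through 1685 to 2051 CPM in sedentary and from 1643 through 2232 to 2587 CPM in trained mice, and 7 of 8 trained mice lay above all sedentary ones. It rose by 0.34 ± 0.08 (adjusted p 0.00279), with an offset value of 0.16 (adjusted p 0.155) and a GC content of 38.6%.

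The pump itself, Atp2a2, ran from 13712 through 15757 to 18748 CPM in sedentary and from 13490 through 17010 to 19184 CPM in trained mice (0.10 ± 0.05, adjusted p 0.22; 0.13 with offsets). Leaving out trained replicate 4 gave 0.12 (adjusted p 0.0647), and a call with offsets (0.18, adjusted p 0.031). Slc8a1, the sodium-calcium exchanger, did not overlap between groups (538 through 624 to 642 CPM sedentary, 651 through 723 to 868 CPM trained) and rose by 0.26 ± 0.05 (adjusted p 0.00181), with an offset value of 0.10 (adjusted p 0.392). Cacna2d1, an auxiliary subunit of the L-type calcium channel, rose by 0.32 ± 0.06 (adjusted p 0.00155; 0.17 with offsets, adjusted p 0.0852), and Ryr2, the calcium release channel, by 0.14 ± 0.05 (adjusted p 0.0479; 0.15 with offsets), a call lost in 12 of 17 fits that left out a library.

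Among channel and receptor genes, Kcnj3 and Chrm2 were called in both fits; they come from 2 lists and are described together because of their known roles. Kcnj3 (ENSMUSG00000026824, GRCm38 2:55435970-55598145) encodes a subunit of the acetylcholine-gated potassium channel. It ran from 46.4 through 55.6 to 71.3 CPM in sedentary and from 70.1 through 79.3 to 87.3 CPM in trained mice, 7 of 8 trained mice lying above all sedentary ones, and rose by 0.46 ± 0.08 (adjusted p 0.000594; 0.37 with offsets, adjusted p 0.0179). Chrm2, the muscarinic receptor that opens this channel, ran from 72.5 through 83.5 to 112 CPM in sedentary and from 102 through 116 to 126 CPM in trained mice and rose by 0.38 ± 0.07 (adjusted p 0.000982; 0.26 with offsets, adjusted p 0.0259). Both are more abundant in atrial than in ventricular muscle. Atrial markers were uneven between hearts: 8 of them summed to 149 to 923 CPM in trained and 132 to 452 CPM in sedentary mice, sums that include Kcnj3 itself. Of the 8, Kcnj3 was called in both fits and Stard10 with offsets only (0.39, adjusted p 0.0207). The other 6 were called in neither: Myl7, Myl4, Sln, Fgf12 and Dkk3 had fold changes of 1.12 ± 0.89, 1.08 ± 0.80, 1.13 ± 0.90, 1.32 ± 0.63 and 0.42 ± 0.45, and Nppa one of −0.28 ± 0.43. The part of atrial tissue in the changes of Kcnj3 and Chrm2 was not tested.

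Of 27 channel and connexin genes, 2 rose and 2 fell (median 0.02; 2 rose with offsets). When trained replicate 4 was left out, 5 rose and 2 fell, and with offsets 8 rose and 1 fell. Of 21 adrenergic and cAMP genes, 1 rose without and 4 with offsets, these being Chrm2 and the adenylyl cyclases Adcy5 (0.18), Adcy6 (0.25) and Adcy9 (0.18). Once trained replicate 4 was removed those counts were 3 and 7. Of 21 calcineurin, NFAT and MEF2 genes, 5 rose and 4 fell (0 called with offsets; 3 rose and 2 fell with offsets without trained replicate 4). The rises included 2 calcineurin subunits, Ppp3cb (0.27 ± 0.05, adjusted p 0.0011; 0.11 with offsets) and Ppp3r1 (0.26 ± 0.05, adjusted p 0.00145; 0.13 with offsets). Of 30 genes of IGF1, PI3K and AKT signalling, the pathway of exercise growth of the heart, 8 rose and 2 fell, and 1 rose with offsets (6 rose and 1 fell with offsets without trained replicate 4). Without sedentary replicate 5, 5 rose and 1 fell. The gene that rose with offsets was Pik3r1, the regulatory subunit of PI3K (0.31 ± 0.07, adjusted p 0.00202; 0.24 with offsets, adjusted p 0.0442). Pik3ca, a catalytic subunit, did not overlap between groups (0.21 ± 0.05, adjusted p 0.00268), with an offset value of 0.07 (adjusted p 0.292).

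**Figure D5:**
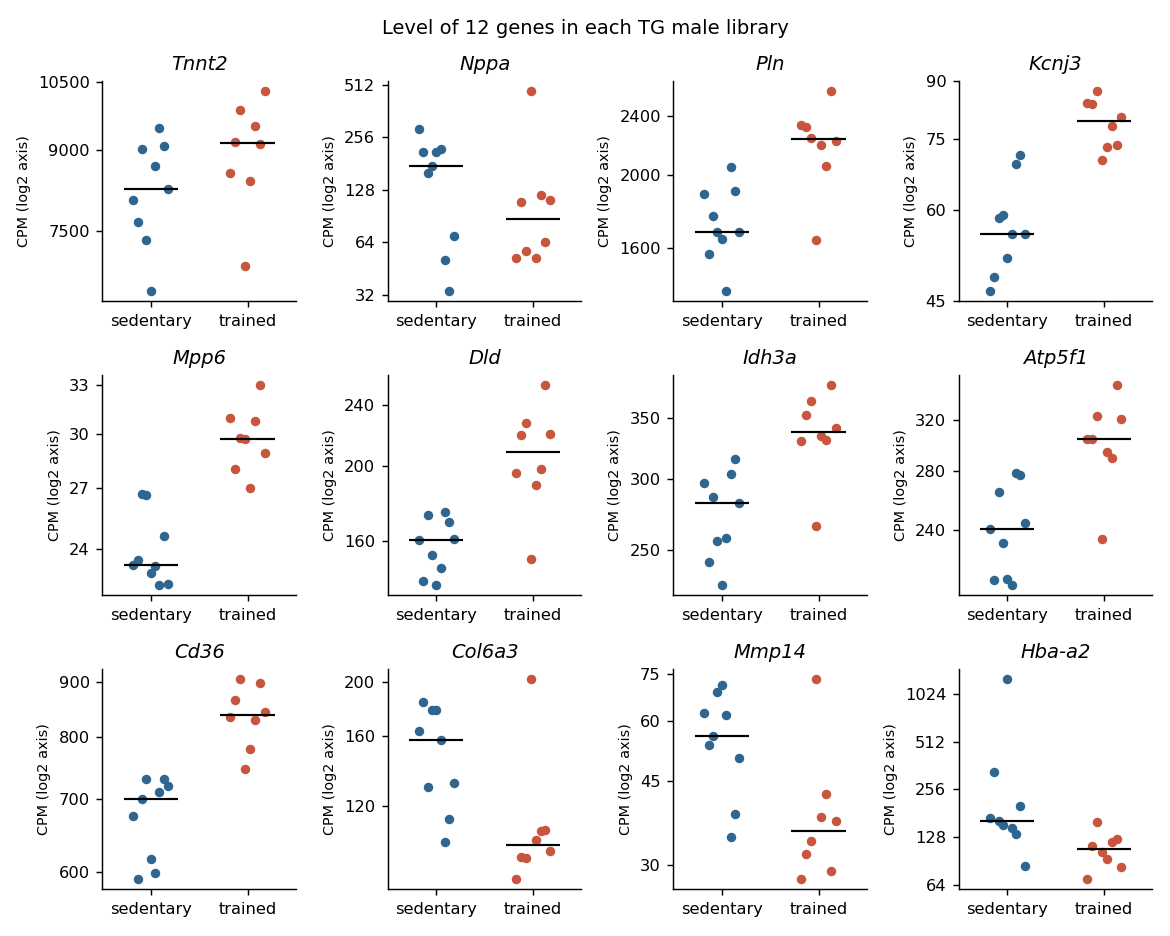
Level of 12 genes in each of the 9 sedentary (blue) and 8 trained (red) TG male libraries (y axis, CPM on a log2 axis); horizontal lines are medians. Mpp6 and Cd36 do not overlap between groups, the trained libraries of Dld, Idh3a, Atp5f1 and Pln lie above the sedentary ones except for replicate 4, and the same library is the highest of the trained in Nppa, Col6a3 and Mmp14.

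Some of the matrix genes fell after training, and trained replicate 4 stood against the others. Of 16 collagen genes 0 rose and 6 fell, with a median of −0.29 over the list. Of all genes 10.3% rose and 7.6% fell (1.06% and 0.39% with offsets). Col6a3 and Col6a2, chains of the collagen VI microfibrils around cells, fell by 0.39 and 0.31 on the log2 scale (adjusted p 0.0101 and 0.0196). Col6a3 ran from 103 through 157 to 184 CPM in sedentary and from 88.9 through 102 to 202 CPM in trained mice, where 202 was replicate 4 and the next trained value 109. Col1a1, the main fibrillar collagen chain, ran from 147 through 252 to 302 CPM in sedentary and from 129 through 153 to 366 CPM in trained mice, 366 again being replicate 4 (−0.41 ± 0.15, adjusted p 0.0486, lost in 13 of 17 fits that left out a library). With offsets 0 collagens were called and the median was −0.17. Without trained replicate 4, 14 of 16 were called lower, and 10 with offsets. Of all 16913 genes 2033 were called lower in that setting, and 665 with offsets. Without sedentary replicate 5, 3 collagens were called lower. Over the 17 fits that each left out a library, 2 to 14 collagens were called lower without offsets.

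Of 32 profibrotic and matricellular genes 1 rose and 7 fell (median −0.19), and 1 fell with offsets (median −0.19). Mmp14, a membrane-bound matrix protease, ran from 34.3 through 55.8 to 71.3 CPM in sedentary and from 28.1 through 35.3 to 73.4 CPM in trained mice, 73.4 being replicate 4, and fell by 0.50 on the log2 scale (adjusted p 0.00483; −0.40 with offsets, adjusted p 0.044). Tgfb1, the fibrogenic growth factor, fell by 0.36 (adjusted p 0.00587; −0.17 with offsets, adjusted p 0.134). With trained replicate 4 left out, 17 of the 32 were called lower, and 13 with offsets. Leaving out each library in turn without offsets gave 4 to 17 called lower, 4 being the count without sedentary replicate 5. Of 18 basement membrane genes 1 rose and 6 fell (median −0.12; 0 called with offsets), among them Hspg2, the heparan sulfate proteoglycan perlecan (−0.31 ± 0.06, adjusted p 0.0011; −0.12 with offsets, adjusted p 0.0909; GC content 60.9%), and Col4a2, a chain of collagen IV (−0.39 ± 0.09, adjusted p 0.00262; −0.21 with offsets, adjusted p 0.102; GC content 60.6%). In the absence of trained replicate 4, 10 of the 18 were called lower and 1 higher, and with offsets 7 lower and 3 higher. The 17 fits that each left out a library gave 4 to 10 called lower without offsets.

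Matrix genes come from fibroblasts and vessel cells, and a minority of the markers of these cells fell as well. Of all genes 7.6% fell (0.39% with offsets). In bulk samples fewer cells of a type and less RNA per cell cannot be told apart. Of 13 fibroblast markers 0 rose and 2 fell (0 called with offsets), Tcf21, a fibroblast transcription factor (−0.32 ± 0.09, adjusted p 0.0133; −0.33 with offsets, adjusted p 0.0535), and Col1a1, itself a collagen. The list median was −0.12, and −0.15 with offsets. The 11 markers that did not pass had fold changes from −0.39 (Col3a1) to 0.08 (Dpt). When trained replicate 4 was left out, 6 fell in either fit. Over the 17 fits that each left out a library, 1 to 6 fell without offsets, 1 being the count without sedentary replicate 5. The fibroblast markers summed to 2234 to 4160 CPM in trained and 2358 to 3537 CPM in sedentary mice. Of 13 endothelial markers 0 rose and 4 fell, none of which was called with offsets, where 1 other fell (Emcn, named after its values were seen, −0.28, adjusted p 0.0399). Once trained replicate 4 was removed these counts were 8 and 2. Over the fits that each left out a library, 2 to 8 endothelial markers fell without offsets. Cdh5, the cadherin of endothelial junctions, did not overlap between groups (302 through 322 to 331 CPM sedentary, 241 through 280 to 298 CPM trained; −0.21 ± 0.05, adjusted p 0.00222; −0.14 with offsets, adjusted p 0.0604), and Eng, a co-receptor of endothelium, fell by 0.25 (adjusted p 0.00348; −0.09 with offsets). Of 12 markers of mural and smooth muscle cells 0 rose and 4 fell (0 called with offsets), among them Mcam (−0.29 ± 0.08, adjusted p 0.00903; −0.19 with offsets) and Cspg4 (−0.25 ± 0.07, adjusted p 0.0109; −0.08 with offsets). The part of these cells in the matrix values was not tested.

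Of 16 macrophage markers 0 rose and 5 fell (median −0.20; 0 called with offsets, median −0.21). Without trained replicate 4, 8 fell, and 7 with offsets. Over the fits that each left out a library, 4 to 8 fell without offsets. Of all genes 7.6% fell in the fit of all libraries. Cd68, a lysosomal protein of macrophages, ran from 7.51 through 11.5 to 15.9 CPM in sedentary and from 6.94 through 8.22 to 13.3 CPM in trained mice (−0.48 ± 0.13, adjusted p 0.0103; −0.45 with offsets, adjusted p 0.0596). C1qc, of the complement C1q complex, fell by 0.38 (adjusted p 0.0121; −0.27 with offsets, adjusted p 0.121). The summed macrophage markers were 363 to 686 CPM in trained and 368 to 657 CPM in sedentary mice. Of 23 angiogenesis genes 1 rose and 4 fell (0 called with offsets). Over the 17 fits that each left out a library, 1 to 5 fell without offsets. Those that fell in all libraries included Aplnr, the apelin receptor (−0.64 ± 0.19, adjusted p 0.015), with an offset value of −0.60 (adjusted p 0.0664). Pdgfb, a growth factor that recruits pericytes, also fell (−0.24 ± 0.08, adjusted p 0.0234, −0.06 with offsets). The call of Pdgfb was lost in 3 of 17 fits that left out a library.

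Red blood cell genes gave some of the widest fold changes, and these rested on one library. Of 9 such genes 6 fell in both fits. Hba-a2, an alpha-globin gene, ran from 84.1 through 161 to 1275 CPM in sedentary and from 69.8 through 108 to 159 CPM in trained mice (−1.45 ± 0.30, adjusted p 0.00169). The beta-globin genes Hbb-bs (−1.48 ± 0.31, adjusted p 0.0018) and Hbb-bt (−1.55 ± 0.35, adjusted p 0.00262) and Slc4a1, the anion exchanger of red cells (−3.02 ± 0.61, adjusted p 0.00146), also fell. Globin genes are near-identical copies, so their counts may be divided between them uncertainly. The highest sedentary value in each was replicate 5. Without it the fold changes were −0.68 (adjusted p 0.0194) for Hba-a2, −0.66 (0.0305) for Hbb-bs, −0.60 (0.0872) for Hbb-bt and −0.99 (0.112) for Slc4a1, and 3 of the 9 genes were called. The red cell share itself was 0.050% ± 0.0094 (SD, n = 8) in trained and 0.121% ± 0.146 (SD, n = 9) in sedentary mice (two-sided exact permutation test p 0.0335, adjusted 0.101), and 0.0733% ± 0.0254 (SD, n = 8) in sedentary mice without replicate 5. With the log2 share as a covariate, 940 genes were called (606 higher) and 0 when offsets were added.

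Other markers were sparse. Of 6 neutrophil markers measured 0 were called (list median 0.26, 4 with positive fold changes). Mmp9, the most counted, had a fold change of −0.22 ± 0.25 (adjusted p 0.582). Of 11 lymphocyte markers 0 were called (list median −0.34). Ighm, the most counted of them, had a fold change of −0.39 ± 0.21 (adjusted p 0.187). Without trained replicate 4 Ighm was called (−0.59, adjusted p 0.0298). Of 8 fat cell markers 0 were called (list median −0.17, 3 with positive fold changes), with Plin4 at 0.13 ± 0.07 (adjusted p 0.219). Of 6 skeletal muscle markers measured 1 fell (0 with offsets), Ryr1, the calcium release channel of skeletal muscle (−0.82 ± 0.27, adjusted p 0.0269; −0.67 with offsets, lost in 4 of 17 fits that left out a library). Of 5 epicardial markers 1 fell (0 with offsets; 3, and 2 with offsets, without trained replicate 4), Krt18 (−0.82 ± 0.29, adjusted p 0.0377; −0.72 with offsets, adjusted p 0.146, lost in 9 of 17 fits). Of 10 Schwann cell markers 2 rose, among them Cdh19 (0.49 ± 0.15, adjusted p 0.0176; 0.28 with offsets). Cdh19 had an adjusted p of 0.0661 without trained replicate 7.

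Stress response lists held calls in both directions. Of 37 heat shock and chaperone genes 11 rose and 4 fell (median 0.08), and 1 rose with offsets. Without trained replicate 4 and with offsets 7 rose. Over the 17 fits that each left out a library, 7 to 12 rose and 1 to 5 fell without offsets. Hspd1, the mitochondrial chaperonin, ran from 155 through 174 to 188 CPM in sedentary and from 165 through 218 to 249 CPM in trained mice and rose by 0.30 ± 0.06 (adjusted p 0.00181; 0.25 with offsets, adjusted p 0.0238). Tcp1, of the cytosolic chaperonin, rose by 0.18 ± 0.04 (adjusted p 0.00372; 0.15 with offsets, adjusted p 0.0604). The 4 that fell, named after their values were seen, were Bag3 and the small heat shock proteins Hspb6, Hspb7 and Hspb8. Of 29 antioxidant and NRF2 target genes 5 rose and 3 fell (1 rose with offsets). With trained replicate 4 left out, 6 rose and 7 fell, and with offsets 4 rose and 5 fell. Without sedentary replicate 5, 2 rose and 3 fell. The fallen ones included Ftl1, the light chain of ferritin (−0.32 ± 0.07, adjusted p 0.00202; −0.22 with offsets, adjusted p 0.0639), and Srxn1, sulfiredoxin (−0.34 ± 0.09, adjusted p 0.00932; −0.26 with offsets). The rises included the mitochondrial Prdx3 and Sod2, also named after their values were seen.

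Of 28 ubiquitin ligase and autophagy genes 2 rose and 1 fell without offsets and 2 rose with them (5 rose and 1 fell with offsets without trained replicate 4). Sqstm1, the cargo receptor of autophagy, fell by 0.20 (adjusted p 0.0181; −0.11 with offsets), and Lamp2, of the lysosomal membrane, rose by 0.17 ± 0.05 (adjusted p 0.0261), a value that turned to −0.01 with offsets. With trained replicate 7 left out Sqstm1 had an adjusted p of 0.0577. The call of Lamp2 was lost in 4 of 17 fits that left out a library. Of 23 genes of the ATF4 response 1 rose and 2 fell (0 with offsets). Without trained replicate 4, 1 rose and 4 fell, and with offsets 1 rose and 1 fell. Aldh18a1, of proline synthesis, fell in all libraries (−0.23 ± 0.08, adjusted p 0.0303, −0.14 with offsets), a call lost in 7 of 17 fits. Of 26 immediate early genes 0 rose and 2 fell (0 with offsets; without trained replicate 4, 5 fell, and 2 with offsets). These were Junb (−0.41 ± 0.12, adjusted p 0.0172; −0.23 with offsets; adjusted p 0.0514 without sedentary replicate 6) and Egr2 (−0.67 ± 0.25, adjusted p 0.0469; −0.63 with offsets, lost in 11 of 17 fits).

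Of 29 cell cycle genes 0 rose and 3 fell (0 with offsets; without trained replicate 4, 6 fell, and 3 with offsets), with Tyms, thymidylate synthase, at −0.46 ± 0.15 (adjusted p 0.0234; −0.48 with offsets, adjusted p 0.0604; adjusted p 0.0558 without sedentary replicate 3) and Mcm3, of the replication helicase, at −0.31 ± 0.10 (adjusted p 0.029; −0.24 with offsets, lost in 6 of 17 fits). Of 33 interferon and antigen presentation genes 0 were called, and H2-D1, a class I histocompatibility gene, had a value of −0.24 ± 0.11 (adjusted p 0.118). In the absence of trained replicate 4, 13 of them were called lower, H2-D1 included (−0.40, adjusted p 0.00359), and 5 with offsets. Over the fits that each left out a library, 0 to 13 of them were called lower without offsets. Of 23 clock genes 1 rose, Rora, a nuclear receptor of the clock (0.18 ± 0.05, adjusted p 0.0121; 0.04 with offsets; adjusted p 0.0555 without trained replicate 7). Of 31 transcript processing genes 9 rose and 0 fell (1 with offsets, and 4 without trained replicate 4), among them the splicing kinase Clk4 (0.35 ± 0.08, adjusted p 0.00262; 0.23 with offsets, adjusted p 0.0494) and Hnrnpa2b1, an RNA-binding protein (0.25 ± 0.06, adjusted p 0.00277; 0.13 with offsets, adjusted p 0.131). The median GC content of that list is 44.6%.

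Outside the lists, the genes with the smallest p were a mixed set. Mpp6, a membrane-associated guanylate kinase, ran from 22.4 through 23.3 to 26.7 CPM in sedentary and from 27 through 29.7 to 33 CPM in trained mice, without overlap, and rose by 0.31 ± 0.05 (adjusted p 0.000594; 0.22 with offsets, adjusted p 0.0179). Trappc2, of a vesicle tethering complex, did not overlap either (3.53 through 4.17 to 4.84 CPM sedentary, 4.89 through 6 to 7.23 CPM trained; 0.52 ± 0.09, adjusted p 0.000594; 0.36 with offsets, adjusted p 0.0183). Tmx4, a thioredoxin-related membrane protein, rose by 0.25 ± 0.04 and Rabggtb, a subunit of the enzyme that attaches lipids to Rab proteins, by 0.28 ± 0.05, each with an adjusted p of 0.000594, and had offset values of 0.13 (adjusted p 0.0456) and 0.15 (adjusted p 0.0604). All 5 rising genes of this rule outside the mitochondrial lists, Kcnj3 among them, had a GC content between 41.5% and 44%.

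Falling genes chosen by the same rule were Thsd1 (−0.35 ± 0.06, adjusted p 0.000982; −0.32 with offsets, adjusted p 0.0179), a thrombospondin-domain protein of endothelium, Gpsm3 (−0.66 ± 0.12, adjusted p 0.0011; −0.52 with offsets, adjusted p 0.0181), a regulator of G proteins in blood cells, Rab4b (−0.37 ± 0.07, adjusted p 0.00113; −0.24 with offsets, adjusted p 0.0288), a GTPase of recycling endosomes, Vasp (−0.40 ± 0.08, adjusted p 0.00131; −0.25 with offsets, adjusted p 0.0216), an actin regulator, and Slc50a1 (−0.33 ± 0.07, adjusted p 0.00133; −0.28 with offsets, adjusted p 0.0183), a sugar transporter, beside Hspg2. Thsd1 ran from 8.64 through 11 to 12.8 CPM in sedentary and from 7.91 through 8.59 to 9.27 CPM in trained mice. These 5 kept their calls with offsets.

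Of the genes with the widest rises, Timp4, an inhibitor of matrix proteases found in heart, ran from 7.13 through 11.1 to 18.1 CPM in sedentary and from 6.95 through 17.9 to 38.7 CPM in trained mice (0.86 ± 0.19, adjusted p 0.00266; 0.85 with offsets, adjusted p 0.0183). Chl1, a neural adhesion molecule, had a value of 0.75 ± 0.25 (adjusted p 0.0321; 0.59 with offsets, lost in 7 of 17 fits that left out a library), and Tmem56 one of 0.71 ± 0.17 (adjusted p 0.0033; 0.57 with offsets, adjusted p 0.0526). Beside the red cell genes, Gcat (ENSMUSG00000116378), named for an enzyme of threonine breakdown, had the widest fall, at −1.93 ± 0.69 (adjusted p 0.0419; −1.81 with offsets, lost in 9 of 17 fits), with levels of 0 to 1.18 CPM in trained and 0.831 to 3.17 CPM in sedentary mice. Another gene identifier with the same symbol (ENSMUSG00000006378) was called in the other direction (0.40 ± 0.12, adjusted p 0.0144; 0.54 with offsets, adjusted p 0.0202), so how reads were divided between the 2 is uncertain.

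Trained and sedentary nTG males, and trained and sedentary TG females, were set beside these values. In nTG males 0 genes passed in edgeR (999 at an unadjusted p under 0.05), and in TG females 0 (606). The difference between the training effects of TG and nTG males was tested gene by gene, as was that between TG males and TG females. Neither interaction had a gene past the threshold in edgeR, with 2503 and 3063 at an unadjusted p under 0.05. DESeq2 called 1 and 166 genes, and limma voom with quality weights 300 and 927. For the sex interaction, edgeR called 904 genes without trained TG female replicate 6, 460 without trained TG male replicate 4 and 416 without sedentary TG female replicate 4. No gene named here is therefore shown to respond differently in TG males than in nTG males or TG females in the main fit. Dld had a training fold change of 0.07 in nTG males and −0.01 in TG females, Idh3a of 0.11 and 0.02, Kcnj3 of 0.06 and 0.12, Cd36 of 0.09 and −0.07, and Col6a3 of −0.23 and −0.14. Median fold changes of the fatty acid oxidation, TCA cycle, complex I and complex III to V lists were 0.00, 0.00, 0.01 and 0.03 in nTG males and −0.04, 0.00, 0.00 and 0.01 in TG females.

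The transgene's own effect is given beside that of training; among males the pair of comparisons shares the 9 sedentary TG libraries, so their values are listed only side by side. In sedentary TG against sedentary nTG males the median log2 fold change was −0.26 for fatty acid oxidation genes, −0.27 for TCA cycle genes, −0.26 for complex I and −0.28 for complex III to V, 0.43 for collagens, 0.41 for profibrotic genes, 0.64 for macrophage markers and 0.50 for cardiac stress genes. For 8 cardiac genes named whatever their values, the log2 fold changes by transgene and by training were 1.34 and 0.13 for Tnnt2, 0.73 and −0.28 for Nppa, 0.53 and −0.48 for Nppb, 1.63 and −0.88 for Acta1, −0.23 and 0.09 for Myh6, 1.72 and −0.71 for Myh7, −0.29 and 0.10 for Atp2a2, and −0.31 and 0.34 for Pln. Of the 8 training values that for Pln passed.

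A list that shares no library with the trained and sedentary TG males was taken from females. Between the 8 sedentary TG and the 8 sedentary nTG females 739 of 16913 genes (4.37%) passed. Of the 471 of them lower in sedentary TG than nTG females, 72 were called higher and 10 lower in trained TG males (10.3% and 7.6% of all genes), and 64.1% had a positive fold change, against 50.0% of all genes. With offsets 16 were called higher and 0 lower (1.06% and 0.39% of all genes), and 79.8% had a positive fold change, against 54.5% of all genes; the medians were 0.04 without and 0.08 with offsets. Of the 268 higher in sedentary TG than nTG females, 10 were called higher and 39 lower, and 37.7% had a positive fold change. With offsets 0 were called higher and 1 lower, 44.4% were positive, and the median was −0.01, against −0.05 without offsets. The GC content of the lists was near that of all genes (medians 51% and 50.9%).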

How the data were processed

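Heart RNA was extracted with a fibrous tissue kit, depleted of ribosomal RNA and made into broad-range libraries, per the labels' protocols. The authors deposited a table of whole-number counts for 16913 genes and a table of expected counts for 3787 lncRNA transcripts, each with 64 columns. The submitters' processing notes name cutadapt 2.3, STAR 2.7.8a and RSEM 1.3.3 and the builds GRCm38 and mm10, without saying which step made which table. Gene columns were matched to lncRNA columns (log2 CPM, pseudocount 0.5, transcripts with a mean count of at least 20). The low-count filter of edgeR removed no gene.

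Gene counts were tested with edgeR 4.0.16 (R 4.3.3; TMM scaling, quasi-likelihood F test, a mean for each of 8 groups, Benjamini-Hochberg adjustment over all genes, adjusted p under 0.05). Offsets were natural splines with 5 degrees of freedom on GC content and transcript length, fitted in each library, for 16879 genes. Both properties were taken from the longest protein-coding GENCODE M21 transcript, or the longest of any kind where a gene had none. CPM use TMM-scaled library sizes. DESeq2 1.42.0 and limma 3.58.1 were alternatives, and the tests were checked on simulated data.

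The genes named are Tnnt2 and 7 cardiac genes, the 6 rising and 6 falling genes with the smallest p and the 4 of each with the largest change (called, mean of at least 50 counts, no clone or pseudogene symbols), and from each list the 2 called members with the smallest p or else the most counted. A few genes that this rule picks are not reported here. Members, lists and tests were chosen with earlier results of these data known.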

Additional observations from a re-analysis of the deposited data

Results flagged for a closer look

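In 33 of 202 groups of values examined (the named genes and library measures in each of the 2 groups), a single library lay apart from the rest by more than Dixon's critical value, where chance gives about 10.1. Most of them were the same pair of libraries. Values are CPM.

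Trained replicate 4 was above the other 7 trained mice in 18 genes of stress, matrix, immune and other lists: Nppa 472 (others 51.6 to 119), Acta1 689 (others 135 to 337), Myh7 2671 (others 452 to 1383), Hspg2 2065 (others 1656 to 1765), Gdf15 4.73 (others 1.39 to 2.9), Ankrd23 1047 (others 515 to 713), Col6a3 202 (others 88.9 to 109), Col6a2 181 (others 93.9 to 121), Mmp14 73.4 (others 28.1 to 42.2), Tgfb1 51.6 (others 31.8 to 40.4), Col4a2 855 (others 521 to 632), Junb 38.8 (others 23.9 to 30.8), Srxn1 31.3 (others 20.6 to 24.4), H2-D1 276 (others 115 to 182), Cd68 13.3 (others 6.94 to 9.18), C1qc 56.3 (others 30.9 to 42.9), Ighm 15.1 (others 6.08 to 8.5), Col1a1 366 (others 129 to 188). It was below them in 4 genes of mitochondrial metabolism: Idh3a 266 (others 330.2 to 381), Ndufs1 369 (others 474 to 543), Ndufv2 129.7 (others 173 to 194), mt-Co1 48429 (others 62158 to 73915). Of these genes, the fold changes without this library included −1.09 for Gdf15, −0.60 for Cd68, −0.49 for Junb and −0.66 for Col1a1, all called, and for many of the lists the counts without it stand beside the results.

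Sedentary replicate 5 was above the other 8 sedentary mice in Slc4a1 22.8 (others 0.215 to 2.33), Hbb-bt 217 (others 8.23 to 43.8), Hbb-bs 2049 (others 129 to 516), Hba-a2 1275 (others 84.1 to 330.5), Ighm 19.5 (others 6.56 to 12). Its red blood cell gene share of 0.505% stood against 0.0425% to 0.13%. Of the other libraries, trained replicate 7 was above the rest in Slc8a1 868 (others 651 to 737), Mut 123 (others 64.7 to 89.7), Rora 60.7 (others 48.8 to 54.1). In sedentary mice, replicate 8 was above the rest in Tmem56 5.08 (others 1.87 to 3.46), and replicate 2 was below the rest in Slc8a1 538 (others 589 to 642). No explanation of these values was tested.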

How the results depend on the processing

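The number of genes called between trained and sedentary TG males, 3036, stayed within 1.5 times with DESeq2 (3314), limma voom (4541), the RLE scaling of edgeR (3047), all genes kept (3036), a mean of at least 50 counts (3326), the length offset (2774), fits of the contrast's groups (2804) or of males (3151), and the library number as a covariate (2744). It moved to 263 with the GC offset, 246 with GC and length offsets, 940 with the red blood cell share as a covariate and 0 with columns by name (1373 at an unadjusted p under 0.05 in edgeR). Leaving out each library in turn gave 1702 to 4061. In those fits 1 to 6 cell cycle genes and 0 to 5 immediate early genes were called lower. Sarcomere genes called higher ran from 1 to 6, and mitochondrial ribosomal protein genes from 10 to 27. With offsets, the count of 246 moved to 23 in a fit of the contrast's groups and 0 with the red blood cell share as a covariate. Leaving out each library with offsets gave 0 to 1960. All of these fits with offsets were added after seeing the data.

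The replicate numbers did not pair the libraries: deviations of same-numbered trained and sedentary libraries correlated at −0.16 to 0.10, and 0 of 8 correlated best with its own number. A replicate block gave 2151 calls, and the replicate block with GC and length offsets gave 1. The 2 interactions had 0 calls in edgeR under the other settings, with 1 (genotype) and 166 (sex) in DESeq2 and 300 and 927 in limma voom. Leaving out each library gave 0 to 1 for genotype and 0 to 904 for sex.

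Of the 95 named genes, 84 were called without offsets. With GC and length offsets 29 of these kept call and direction, 54 kept the direction but lost the call, and 1 turned, while the other 11 named genes were called in neither fit. Lamp2 turned to −0.012 with GC and length offsets, −0.020 with the GC offset and −0.017 with the replicate block and both offsets. With the red blood cell share as a covariate, Hbb-bt turned to 0.13 and Hbb-bs to 0.020. That share is summed over 9 genes that include both, so the loss of their change was set by the covariate. With columns by name, which compare other libraries, the direction turned for 59 genes, whose log2 fold changes were: Nppa 0.31, Myh6 −0.022, Myh7 0.59, Atp2a2 −0.094, Pln −0.011, Kcnj3 −0.018, Rabggtb −0.066, Mpp6 −0.0034, Dnm1l −0.012, Thsd1 0.063, Rab4b 0.13, Vasp 0.019, Slc50a1 0.077, Tmem56 −0.17, Slc4a1 0.029, Nexn −0.033, Cacna2d1 −0.15, Slc8a1 −0.069, Ppp3cb −0.047, Ppp3r1 −0.021, Pik3r1 −0.0095, Col6a3 0.19, Col6a2 0.098, Mmp14 0.15, Cd36 −0.068, Acadl −0.016, Dld −0.045, Idh3a −0.12, Ndufs1 −0.035, Ndufv2 −0.084, Atp5h −0.046, Atp5f1 −0.076, mt-Nd3 −0.15, mt-Co1 −0.055, Mrps30 −0.030, Mrpl47 −0.098, Prkaa2 −0.0015, Mut −0.0011, Egr2 0.091, Hspd1 −0.082, Tcp1 −0.051, Ftl1 0.063, Srxn1 0.070, Sqstm1 0.0031, Tyms 0.12, Mcm3 0.16, H2-D1 0.046, Hnrnpa2b1 −0.042, Ryr2 −0.0074, Ryr1 0.36, Cd68 0.088, C1qc 0.12, Ighm 0.0022, Tcf21 0.025, Col1a1 0.15, Mcam 0.02, Cspg4 0.082, Plin4 −0.026, Krt18 0.40. In the same setting the mitochondrial share differed by −0.242 percentage points and the total by −4.21 M counts. The cause was not tested. What depth limits was not tested.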
